A study of Mus musculus with 3 samples.

Results

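A set of 10 genes of steroid hormone synthesis were read from the suprarenal RNA-seq tables of apolipoprotein E-deficient mice. The 10 members, *Star*, *Cyp11a1*, *Hsd3b1*, *Cyp21a1*, *Cyp11b1*, *Fdx1*, *Fdxr*, *Mc2r*, *Akr1b7*, and *Scarb1*, were picked by gene symbol from 1238 different genes in the 3 deposited tables, with their values already known. All 10 were higher in the library from dissecting abdominal aortic aneurysms (AAAs) than in the library from angiotensin II (AngII) infused aortas with no aneurysm. The ratio ran from 2.65-fold for *Scarb1* to 65.2-fold for *Hsd3b1*. Of these genes, 8 were also listed against saline-infused aortas, from 3.85-fold for *Scarb1* to 128-fold for *Hsd3b1*. None was listed between the AngII No AAA and Saline libraries.

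Male apoE null mice on the C57BL/6 strain received pumps at an age of 12 weeks, so every group shared the apoE deficiency, the sex, and the surgery. The AngII AAA cohort was infused with AngII and its lesions were taken within 24 hours of diagnosis. The AngII No AAA cohort received AngII and the Saline cohort received saline, and the suprarenal aortas of both were taken on day 10. Each cohort was 1 library made from the pooled RNA of several animals. No value below therefore carries an error or a test, and a difference between libraries compares these pools only. Disease state and day of collection also cannot be told apart for the AngII AAA pool.

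The values are FPKM, that is, fragment counts divided by transcript length and by the number of mapped fragments, which allow levels to be compared between genes. The submitters state 35000000 to 43000000 reads per library, but the read count behind a single value is unknown. Each table lists only the genes for which the authors' unadjusted p-value was under 0.05, which left 600 genes in AngII AAA vs. AngII No AAA, 715 genes in AngII AAA vs. Saline, and 564 genes in AngII No AAA vs. Saline. A gene missing from a table either did not pass that limit or was not tested. Levels below are given on the scale that the AngII AAA vs. Saline table uses. The tables were normalized separately, and the AngII No AAA values of the members were brought to this scale through the AngII AAA pool. For genes outside the members, values taken from AngII No AAA vs. Saline were brought to it through the Saline pool, as for *Fkbp5* and *Mt2*. The routes differed by 3.20%.

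Steroid hormones are made from cholesterol in a fixed series of steps. Cells take up cholesterol, carry it into the mitochondrion, cut its side chain there, and then modify the ring system in the endoplasmic reticulum and again in the mitochondrion. In mice most of these genes are best known from the adrenal cortex, where corticosterone is the main glucocorticoid, and several of them from the gonads. The adrenal glands lie close to the suprarenal aorta. Lower levels per cell and fewer expressing cells cannot be told apart in such bulk tissue RNA.

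**Figure D1:**
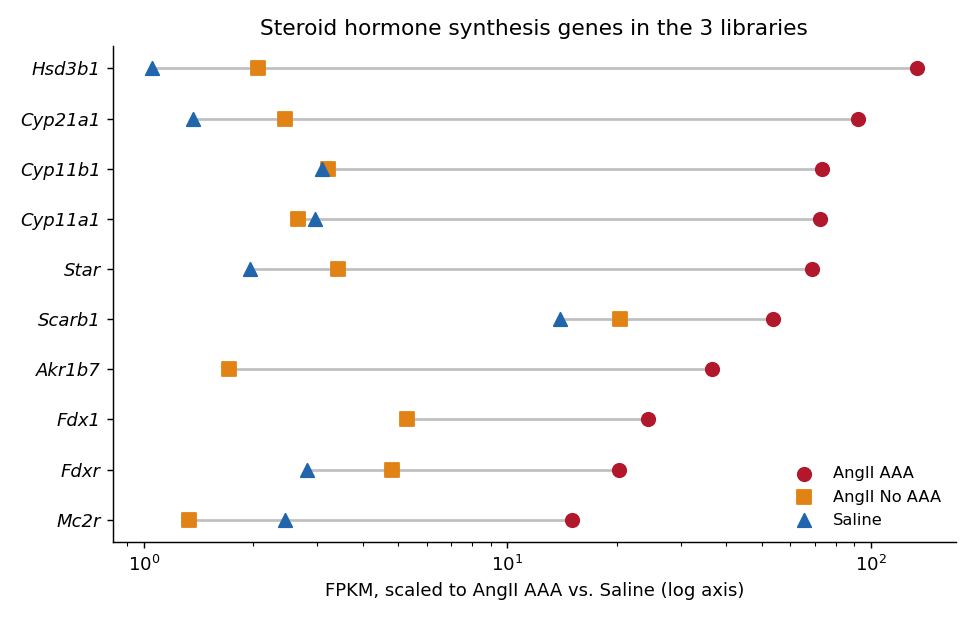
Level of each of the 10 genes in the AngII AAA (circles), AngII No AAA (squares), and Saline (triangles) libraries, in FPKM on a log axis, with 1 pooled library per cohort and no error bars. The AngII AAA pool was the highest of the libraries read for every gene, from 15.0 FPKM for *Mc2r* to 134 FPKM for *Hsd3b1*. The Saline level of *Akr1b7* and *Fdx1* could not be read.

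The hormone receptor and the cholesterol supply were considered first. *Mc2r*, on chromosome 18 from 68566552 to 68588974 (mm9), encodes the receptor for adrenocorticotropic hormone, the pituitary signal for glucocorticoid synthesis. It was at 15.0 FPKM in the AngII AAA pool, at 1.33 FPKM in the AngII No AAA pool, and at 2.44 FPKM in the Saline pool. The log2 ratios of the AngII AAA pool were 3.50 against AngII No AAA and 2.62 against Saline. *Mc2r* was thus the lowest member in the AngII AAA pool, and the AngII No AAA pool held less of it than the Saline pool.

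*Scarb1* (chr5:125757456-125821464, mm9) encodes a receptor for high-density lipoprotein through which rodent steroid-making cells take up cholesterol esters, and it is also found in liver, macrophages, and endothelium. It was at 53.8 FPKM in the AngII AAA pool, 20.3 FPKM in the AngII No AAA pool, and 14.0 FPKM in the Saline pool. It had the highest level of the members read in each library without aneurysm. Its log2 ratios were the smallest, 1.40 against AngII No AAA and 1.95 against Saline. *Star* (chr8:26918984-26926454, mm9), whose protein moves cholesterol to the inner mitochondrial membrane, was at 68.7, 3.42, and 1.96 FPKM in AngII AAA, AngII No AAA, and Saline, respectively. Its log2 ratios were 4.33 against AngII No AAA and 5.13 against Saline.

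Side-chain cleavage requires an enzyme and its electron carriers. *Cyp11a1* (chr9:57862823-57874830, mm9), the cholesterol side-chain cleavage enzyme that makes pregnenolone, was at 72.2 FPKM in the AngII AAA pool, at 2.65 FPKM in the AngII No AAA pool, and at 2.95 FPKM in the Saline pool. The log2 ratios were 4.77 and 4.61, in the same order of comparison. *Fdxr* (chr11:115129338-115138283, mm9) and *Fdx1* (chr9:51751129-51771707, mm9) encode the reductase and the ferredoxin that pass electrons from NADPH to the mitochondrial P450 enzymes, and most tissues express them. *Fdxr* was at 20.3, 4.81, and 2.81 FPKM in the 3 libraries, with log2 ratios of 2.07 against AngII No AAA and 2.85 against Saline. *Fdx1* was at 24.4 FPKM in the AngII AAA pool and 5.30 FPKM in the AngII No AAA pool, a log2 ratio of 2.20, and it was not listed against Saline. The carriers were therefore separated by about the same ratio from the AngII No AAA pool, and both by less than the enzyme they serve.

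The enzymes that follow included the genes with the widest gaps, *Hsd3b1* and *Cyp21a1*. *Hsd3b1* (chr3:98656116-98663717, mm9) encodes the dehydrogenase and isomerase that turns pregnenolone into progesterone. It was at 134 FPKM in the AngII AAA pool, at 2.06 FPKM in the AngII No AAA pool, and at 1.05 FPKM in the Saline pool. It was the highest member in the AngII AAA pool and the lowest of the members read in the Saline pool, with log2 ratios of 6.03 and 7.00. *Cyp21a1* (chr17:34938292-34941371, mm9), the 21-hydroxylase, was at 91.9, 2.45, and 1.36 FPKM, with log2 ratios of 5.23 and 6.08. *Cyp11b1* (chr15:74665321-74672073, mm9), the 11-beta-hydroxylase that completes corticosterone, was at 73.5, 3.21, and 3.10 FPKM, with log2 ratios of 4.52 and 4.57. Its level was nearly the same in both libraries without aneurysm. *Akr1b7* (chr6:34362361-34373137, mm9) encodes an aldo-keto reductase that clears the aldehyde released by side-chain cleavage. It was at 36.6 FPKM in the AngII AAA pool and 1.71 FPKM in the AngII No AAA pool, a log2 ratio of 4.42, and was not listed against Saline.

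Reads of some members can also match related genes. Of the 50-base windows in the longest coding transcript (GENCODE M21), 23.7% for *Cyp21a1* were also found in its pseudogene *Cyp21a2-ps*. The share was 10.5% for *Cyp11b1*, which included the aldosterone synthase gene *Cyp11b2*, 4.98% for *Hsd3b1*, which included *Hsd3b6*, and 2.52% for *Akr1b7*. The other 6 members shared none. How the authors' pipeline divided such reads is not given in the sources used here, so the values of these 4 genes may include reads of their relatives.

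Set against all genes of each AngII AAA comparison, every listed member except *Scarb1* was above the median log2 ratio. In AngII AAA vs. AngII No AAA, 10 of 10 members were higher in the AngII AAA pool, beside 79.0% of all 600 listed genes. At least a 4-fold difference was reached by 9 of the 10, with *Scarb1* the exception, beside 31.5% of the 584 genes above 0 in both libraries. The members' median log2 ratio was 4.37, against 1.63 over those 584 genes. *Hsd3b1* and *Cyp21a1* ranked 1 and 2 of the 584, 6 members were within the top 20, and 7 were within the top 100, while *Fdx1*, *Fdxr*, and *Scarb1* ranked 137, 159, and 388. As the members were chosen with these ratios known, the counts are a description of the genes and not a test.

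In AngII AAA vs. Saline, 8 of the 10 members were listed and 8 of these 8 were higher in the AngII AAA pool, where 84.6% of all 715 listed genes were higher too. At least a 4-fold difference was reached by 7 of the 8, beside 63.7% of the 677 genes above 0 in both libraries. The median log2 ratio was 4.59 for the members and 2.26 over the 677 genes. *Hsd3b1* again ranked 1, *Cyp21a1* ranked 5, and *Star* ranked 16, whereas *Fdxr*, *Mc2r*, and *Scarb1* ranked 200, 250, and 460. Both comparisons use the same AngII AAA pool, so a high value in that library enters each of them.

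**Figure D2:**
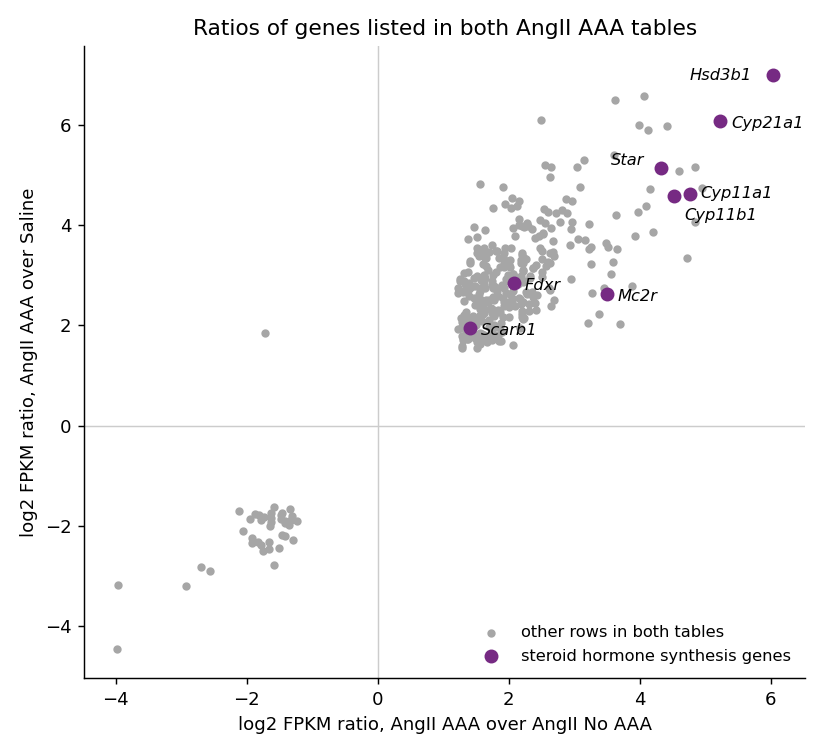
Log2 FPKM ratio of the AngII AAA pool over AngII No AAA (horizontal axis) and over Saline (vertical axis) for the 383 genes listed above 0 in both tables, with the 8 members among them in purple. *Hsd3b1* (6.03 and 7.00) lies at the upper right end, and *Scarb1* (1.40 and 1.95) and *Fdxr* (2.07 and 2.85) lie within the main cloud; the shared AngII AAA pool contributes to both axes.

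The AngII No AAA and Saline libraries could be set side by side for 8 members. Their ratio of AngII No AAA to Saline ran from 0.544 for *Mc2r* to 1.96 for *Hsd3b1*, with 6 members higher in AngII No AAA and 2 (*Mc2r* and *Cyp11a1*) lower. The median log2 ratio was 0.66. None of the 10 members appears in the table of AngII No AAA vs. Saline, in which 63.5% of the 564 listed genes were higher in AngII No AAA and 9.89% of the 546 above 0 in both libraries were at least 4-fold higher. Absence from that table does not show equal expression. For the 10 genes listed there with a higher value from 2 to 5 FPKM the smallest log2 difference was 1.36, and for the 207 from 10 to 30 FPKM it was 0.93, while *Hsd3b1* had 0.97 and *Scarb1* 0.54. The smallest difference that could have been listed for a member is unknown.

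Added over the 8 members, the level was 530 FPKM in the AngII AAA pool, 40.3 FPKM in the AngII No AAA pool, and 29.6 FPKM in the Saline pool. The AngII AAA pool thus held 13.1 and 17.9 times the summed level of the other libraries. Without *Scarb1*, the sums of the remaining 7 members were 476, 19.9, and 15.7 FPKM, and the ratios became 23.9 and 30.3. The make-up of the sum also differed. *Scarb1* made up 50.5% of it in the AngII No AAA pool and 47.1% in the Saline pool but 10.2% in the AngII AAA pool. *Hsd3b1* made up 25.3% in the AngII AAA pool, 5.10% in the AngII No AAA pool, and 3.54% in the Saline pool.

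The members did not keep fixed proportions to each other. *Hsd3b1* was at 1.95 times the level of *Star* in the AngII AAA pool and at 0.602 and 0.535 times in the AngII No AAA and Saline libraries. *Cyp11b1*, by contrast, was at 1.02, 1.21, and 1.05 times the level of *Cyp11a1* in the same libraries. *Cyp21a1* was at 1.27 times the level of *Cyp11a1* in the AngII AAA pool, 0.923 times in the AngII No AAA pool, and 0.461 times in the Saline pool. Several of the lower values are close to 1 FPKM, and their precision is unknown.

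**Figure D3:**
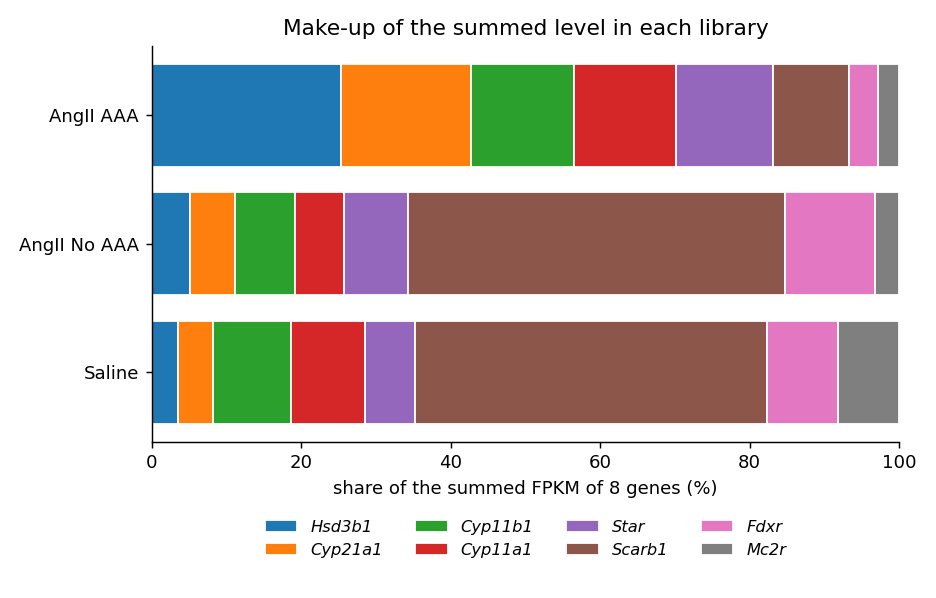
Share of the summed FPKM of 8 members (in %) taken by each gene in the 3 libraries, each bar adding to 100%. *Scarb1* takes 50.5% and 47.1% in the AngII No AAA and Saline libraries and 10.2% in the AngII AAA pool, where *Hsd3b1* takes 25.3%.

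The promoters are shown as sequence only. *Nr5a1*, described below, encodes a nuclear receptor (steroidogenic factor) that binds the promoters of many steroidogenic genes. Whether it acts on the members in these aortas was not tested. Promoter entries in RefSeq (GRCm38.p6) matched 5 members with 6 annotated starts, and *Star*, *Cyp21a1*, *Cyp11b1*, *Mc2r*, and *Scarb1* were not matched. The 250 bases before each start were searched on both strands for AAGGTCA and TCAAGG, the overlapping end and beginning of the receptor's usual element. The letters were chosen with the sequences in view. Either motif was present in 15.6% of all 32841 promoters (4.08% for AAGGTCA and 12.5% for TCAAGG) and in promoters of 3 members, printed here 5′ to 3′ on the strand of the gene with the match in capitals.
Hsd3b1, chr3:98859795-98860044 (GRCm38.p6, minus strand): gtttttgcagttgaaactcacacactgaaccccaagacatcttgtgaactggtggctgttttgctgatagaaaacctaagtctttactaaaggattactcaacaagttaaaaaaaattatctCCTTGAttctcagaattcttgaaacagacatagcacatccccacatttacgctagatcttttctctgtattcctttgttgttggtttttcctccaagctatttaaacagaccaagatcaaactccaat
Akr1b7, chr6:34412112-34412361 (GRCm38.p6, plus strand): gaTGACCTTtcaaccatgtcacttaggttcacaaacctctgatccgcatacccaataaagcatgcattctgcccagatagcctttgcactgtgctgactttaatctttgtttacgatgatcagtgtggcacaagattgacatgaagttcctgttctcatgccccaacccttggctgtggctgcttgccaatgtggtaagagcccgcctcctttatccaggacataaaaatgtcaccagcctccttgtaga
Fdx1, chr9:51963603-51963852 (GRCm38.p6, minus strand): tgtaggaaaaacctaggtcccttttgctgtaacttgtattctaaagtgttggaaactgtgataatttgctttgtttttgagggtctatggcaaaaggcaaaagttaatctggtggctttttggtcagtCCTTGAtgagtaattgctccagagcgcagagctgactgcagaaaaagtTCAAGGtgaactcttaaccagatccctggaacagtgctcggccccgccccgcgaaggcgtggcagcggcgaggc

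In *Hsd3b1*, TCAAGG lay on the opposite strand, 128 to 123 bases before the start. In *Akr1b7*, AAGGTCA lay on the opposite strand, 248 to 242 bases before the start. *Fdx1* held TCAAGG on the strand of the gene from 74 to 69 bases and on the opposite strand from 122 to 117 bases before the start. The windows of *Cyp11a1* and *Fdxr* did not hold either set of letters. These matches are a description of the letters and were not compared with binding data.

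Regulators of the pathway were followed in a list of 26 genes. *Nr5a1* was listed only against Saline, at 8.89 FPKM in the AngII AAA pool and 1.93 FPKM in the Saline pool, a log2 ratio of 2.21. *Mgarp*, which encodes a mitochondrial protein of steroidogenic cells, was listed in both comparisons, at 11.9 FPKM in the AngII AAA pool, 2.09 FPKM in the AngII No AAA pool, and 1.42 FPKM in the Saline pool, with log2 ratios of 2.51 and 3.06. These genes were the only ones of the list found in a comparison of the AngII AAA pool. Both were higher there, as were 79.0% of all genes listed against AngII No AAA and 84.6% against Saline. *Nr4a3* and *Nr4a1*, nuclear receptors that respond rapidly to hormone signals, were listed only between AngII No AAA and Saline, with log2 ratios of 1.80 and 1.10. The accessory protein of *Mc2r*, *Mrap*, and the AngII receptors were not listed in any comparison.

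None of 29 further gene symbols of steroid metabolism was listed in either comparison of the AngII AAA pool. They included *Cyp17a1*, the 17-hydroxylase needed for androgens, *Cyp11b2*, which completes aldosterone, and *Cyp19a1*, which makes estrogens. Of 27 gene symbols of cholesterol supply, *Soat1*, which encodes the enzyme that stores cholesterol as esters, was the only one listed in those comparisons. It was at 26.2, 9.12, and 5.93 FPKM in AngII AAA, AngII No AAA, and Saline, respectively, with log2 ratios of 1.52 and 2.14. *Soat1* is also expressed by macrophages.

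Genes known to respond to glucocorticoids or their relatives, with the receptors, formed a list of 18. Of these, 6 were listed for AngII AAA vs. Saline and 6 in AngII No AAA vs. Saline, each of them higher in the AngII pool, beside 84.6% and 63.5% of all listed genes. Their median log2 ratios were 2.02 and 1.41, against 2.26 and 1.16 over all genes above 0. *Fkbp5*, which encodes a chaperone of the glucocorticoid receptor, was at 33.6, 26.5, and 10.7 FPKM in AngII AAA, AngII No AAA, and Saline, respectively. The metallothionein genes *Mt2* and *Mt1* were at 1341, 764, and 98.2 FPKM and at 3682, 1990, and 529 FPKM. *Angptl4* was at 135, 74.1, and 25.9 FPKM. *Sgk1*, a kinase gene that responds to both corticosteroid receptors, was listed only for AngII AAA vs. Saline, at 42.3 and 13.5 FPKM. *Zbtb16* had another order, with 18.3 FPKM in the AngII AAA pool, 53.7 FPKM in the AngII No AAA pool, and 25.1 FPKM in the Saline pool. It was the only gene of the list in AngII AAA vs. AngII No AAA, with a log2 ratio of -1.56. Among all 600 genes listed there, 126 were lower in the AngII AAA pool. For *Fkbp5*, *Mt1*, *Mt2*, and *Angptl4*, the AngII AAA and AngII No AAA levels come from separate comparisons with Saline. Unlike the members, *Fkbp5* and *Mt2* therefore stood closer between both AngII libraries than to the Saline pool. The receptor genes *Nr3c1* and *Nr3c2* were not listed.

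**Figure D4:**
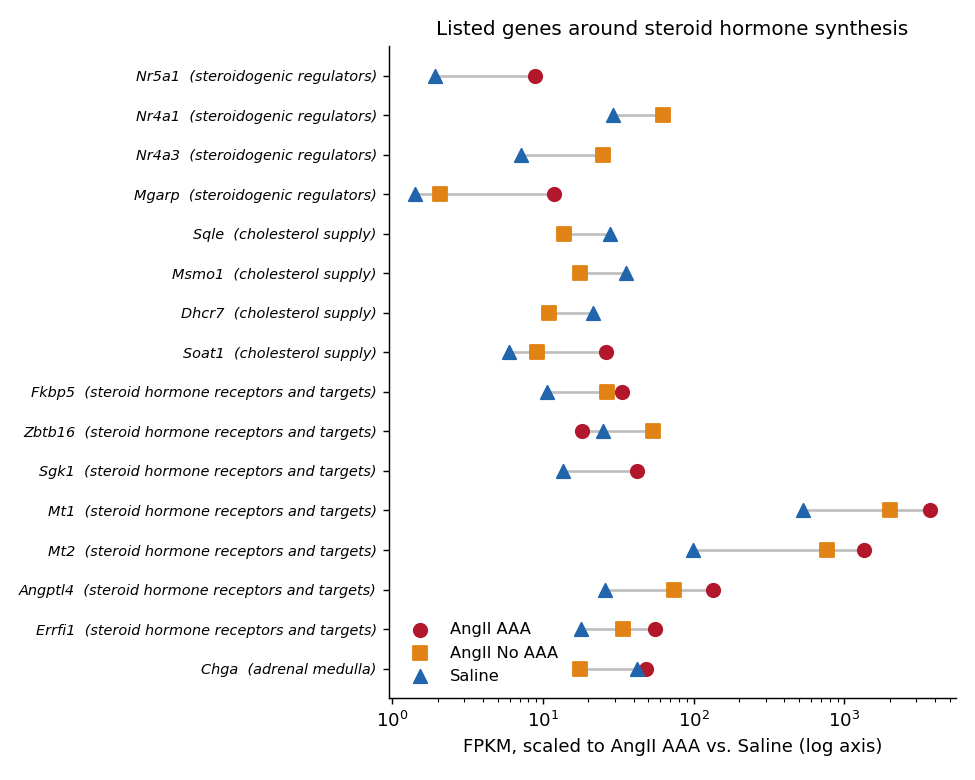
Level in FPKM (log axis) of listed genes of steroidogenic regulation, cholesterol supply, steroid hormone response, and the adrenal medulla that could be read in at least 2 of the 3 libraries, with the markers of the earlier plot of levels. *Mgarp* and *Soat1* were highest in the AngII AAA pool, and *Chga* was at 48.1 and 42.0 FPKM in the AngII AAA and Saline libraries, against 17.7 FPKM in the AngII No AAA pool.

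Markers of tissues near the aorta were read beside the members. Of 16 genes of the adrenal medulla, *Chga*, which encodes a protein of secretory granules, was the only one listed. It was at 48.1 FPKM in the AngII AAA pool and 42.0 FPKM in the Saline pool, both above the 17.7 FPKM of the AngII No AAA pool. *Mc2r* and *Cyp11a1* had the same order of libraries. The other 6 members read in all 3 libraries were lowest in the Saline pool. The catecholamine enzymes *Th*, *Dbh*, and *Pnmt* were not listed in any comparison. None of 5 markers of Leydig cells, the steroid-making cells of the testis, was listed either. Of 14 kidney genes, none was listed against AngII No AAA, and *Slc34a1* had a log2 ratio of -2.38 for AngII AAA vs. Saline.

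Liver genes lay in the opposite direction to the members. Of 13, 3 were listed against AngII No AAA and 4 against Saline, all lower in the AngII AAA pool. Among all listed genes, 126 of 600 and 110 of 715 were lower there. *Alb* (albumin) was at 34.6, 87.1, and 128 FPKM in AngII AAA, AngII No AAA, and Saline, respectively. Of 8 lymph node and B cell genes, 3 were listed in each of these comparisons, all higher in the AngII AAA pool, as were 79.0% and 84.6% of all listed genes. The B cell receptor component *Cd79b* was at 21.9, 3.57, and 3.28 FPKM, and *Glycam1* was listed at 0 in the Saline pool. The order of these markers differed from list to list. Most members are themselves best known from the adrenal cortex, while *Fdx1*, *Fdxr*, and *Scarb1* are also expressed in other tissues. The part of adrenal tissue in the result was not tested.

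Immune and vessel wall genes also differed along with the members. Of 11 macrophage gene symbols, 6 were listed for each comparison of the AngII AAA pool, all higher there, beside 79.0% and 84.6% of all listed genes. Their median log2 ratios were 2.37 against AngII No AAA and 3.56 against Saline, where the genes above 0 had 1.63 and 2.26. *Cd68*, a lysosomal marker of macrophages, was at 279, 59.2, and 18.0 FPKM in AngII AAA, AngII No AAA, and Saline, respectively. Of 11 smooth muscle genes, 7 were listed when the AngII AAA pool was compared with AngII No AAA. All were lower in the AngII AAA pool, beside 126 of all 600 listed genes, with a median log2 ratio of -1.74. The smooth muscle actin gene *Acta2* was at 314 FPKM in the AngII AAA pool and 956 FPKM in the AngII No AAA pool. Against Saline, only *Lmod1* and *Synpo2* of the list were listed, both lower in the AngII AAA pool, beside 110 of all 715 listed genes. *Synpo2* was at 15.6, 49.6, and 85.6 FPKM in AngII AAA, AngII No AAA, and Saline, respectively. The part of these cell types in the members' values was not tested.

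The genes whose ratios were most like those of the members were found by distance from the members' median point (log2 ratios of 4.42 and 4.59 over the 8 members in both tables) among 383 genes above 0 in both tables. The 5 nearest genes outside the members were *Slfn4*, *Pf4*, *Csf3r*, *S100a8*, and *Mmp9*, at distances from 0.291 to 0.565 on the log2 scale. *Csf3r*, the receptor for granulocyte colony-stimulating factor, was at 109, 4.50, and 3.21 FPKM in AngII AAA, AngII No AAA, and Saline, respectively, and *S100a8*, a calcium-binding protein of neutrophils, was at 504, 16.4, and 18.9 FPKM. The nearest member, *Cyp11b1*, lay at a distance of 0.0951 from the point and the farthest at 4.01. The 5 neighbours were chosen for their nearness. The likeness rests on 3 libraries.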

How the data were processed

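RNA-seq was considered for 3 suprarenal libraries, 1 per cohort, each a pool of several mice. Per the labels, the authors used FastQC, HISAT2, Cufflinks, and Cuffdiff with the build mm9. Versions are not given in the sources used here. For each comparison the authors deposited the FPKM of both libraries, from a separate run per comparison, and kept genes with an unadjusted p-value under 0.05, which held for 600 of 600, 715 of 715, and 564 of 564 rows. The files also hold the authors' log2 fold changes, test scores, p-values, and q-values, which were not used otherwise.

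Log2 ratios were computed from the FPKM values with no pseudocount. A library's FPKM differed between tables by a constant (0.968 for AngII AAA over 385 shared genes and 0.915 for Saline over 227), which was removed. With 1 library per cohort, no test was run, and a large difference means at least 4-fold. The calculation was tested on simulated data. Alternatives were pseudocounts of 0.1 and 1 FPKM, at least 1 FPKM in both libraries (or, for the share of all genes, in the higher library), folds of 2, 8, and 16, rows naming a single gene, no scaling, and scaling through the Saline pool.

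The members, 12 further gene lists, and rules were chosen with earlier results of these data known. Lists were counted by gene symbol, and *Adgre1*, *Msmo1*, and *Cyb5a* were also entered under an older symbol. All members are named, with up to 6 listed genes per list and the 5 genes nearest to the members. Coordinates of genes are from the files. None of the 10 overlapped its gene in GENCODE M21 (GRCm38), so that annotation was not used for position. Python 3.11.15, pandas 2.3.3, numpy 2.4.6, and matplotlib 3.10.9 were used.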

Additional observations from a re-analysis of the deposited data

How the results depend on the processing

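Of 86 recomputed values, 82 stayed within 1.5-fold of the reported value, including every member count, median, sum, and share of all genes. Some of these could not differ. Every member value was at least 1 FPKM, so that filter left all members' ratios as they were. A pseudocount cannot change the sign of a ratio. The other 4 were log2 ratios of single genes with a pseudocount of 1 FPKM: 3.78 for *Akr1b7* and 2.76 for *Mc2r* against AngII No AAA, and 5.30 for *Cyp21a1* and 6.04 for *Hsd3b1* against Saline. A pseudocount lowers ratios built on values near 1 FPKM. It brought the members' medians to 3.87 and 4.20. At folds of 2, 8, and 16, the members counted were 10, 7, and 6 against AngII No AAA and 8, 5, and 5 against Saline. Scaling through the Saline pool lowered the AngII No AAA sum from 40.3 to 39.0 FPKM. The members are not in the AngII No AAA vs. Saline table, so their values there could not replace the scaled ones. Single pools, unknown read counts, and tables limited to listed genes bound the precision of each value. No paired analysis was possible because each cohort had 1 library.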

Other observations

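Genes of cholesterol synthesis were listed between the AngII No AAA and Saline libraries, where no member was listed. *Sqle*, *Msmo1*, and *Dhcr7*, enzymes of the later steps of the pathway, were all lower in the AngII No AAA pool, with log2 ratios of -1.01, -1.02, and -0.95. They were the only ones listed there of the 27 gene symbols of cholesterol supply. Among all 564 genes listed in that comparison, 206 were lower in the AngII No AAA pool. *Sqle* was at 13.9 FPKM in AngII No AAA and 28.0 FPKM in Saline. *Hsd17b7*, which acts in cholesterol synthesis as well as on steroid hormones, was at 3.44 and 7.93 FPKM in these libraries, a log2 ratio of -1.20. None of these 4 genes was listed in a comparison of the AngII AAA pool, so their level there could not be read.

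Markers of other tissues also differed between these libraries. The kidney genes *Kap* and *Slc34a1* had log2 ratios of -2.88 and -1.97 for AngII No AAA vs. Saline, with *Kap* at 3.41 and 25.1 FPKM. *Retn*, a hormone gene of adipose tissue, was the only one of 10 adipose genes listed, at 181 FPKM in the AngII No AAA pool and 45.7 FPKM in the Saline pool.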
